A study of Mus musculus with 96 samples.

Results

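The 38 genes described here encode proteins that copy DNA in S phase, with enzymes that supply its nucleotides and proteins that bind histone mRNA or protect the fork. They were taken as a fixed list of symbols, and all 38 were found among the 21711 gene rows of the deposited table. The values come from single-cell tagged reverse transcription (STRT), which marks each cell with a well barcode and reads the 5′ end of its transcripts with their strand. One 96-well plate, sequenced as 1 library, held 48 wells of mouse embryonic stem (ES) cells of the R1 line, 44 wells of fibroblasts of the mouse embryo (MEFs), and 4 wells as negative controls.

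ES cells are pluripotent cells from the early embryo, and per the labels the R1 cells were cultured by a published protocol. MEFs are connective tissue cells of the embryo, and were grown in DMEM with serum, antibiotics, Glutamax and 2-mercaptoethanol. The labels also give R1 as source cell line of the MEF wells, which conflicts with their cell type, and they name no genetic change, treatment, embryo age or passage. ES cells filled plate columns on 1 side and MEFs the other, so plate side and cell type cannot be told apart. No separate cultures were named within a type, so each type was 1 sample. Differences are therefore given as sizes with their spread over plate rows, without a test.

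Before S phase, a ring of MCM proteins is loaded onto origins by the origin recognition complex with Cdc6 and Cdt1. The ring is then activated with GINS and Mcm10, and polymerases, held by the clamp Pcna, copy both strands. In mammals many of these genes are transcribed late in G1 under E2F factors, and mouse ES cells are known for a short G1 and for spending much of their cycle in S phase.

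Wells with at least 10000 gene reads were used, which kept 45 ES cells and 44 MEFs. Gene reads ran from 13576 to 703423 (median 161206) in ES cells, from 63938 to 1883709 (median 851801) in MEFs, and from 236 to 4662 in the negative controls. Ribosomal protein genes made up 45.04% of the reads of the median ES cell, against 13.6% of those of the median MEF. The labels were met by the markers: all 10 ES cell markers, among them Pou5f1, were 2-fold or more up in ES cells, and all 10 fibroblast markers, among them Col1a1, were 2-fold or more up in MEFs. Summed fibroblast markers took 0.00344% to 2.38% of reads in an ES cell (median 0.103%) and 0.444% to 6.51% in a MEF (median 2.06%). The types thus overlapped, and the highest ES cell lay above the median MEF. Without ES cells 4, 7 and 30, which had the highest fibroblast shares among ES cells, the same 33 members were called above the median gene as with them. These cells held only 50, 26 and 2 of the 11500 ES replication reads. Leaving them out could thus hardly change a pooled ratio, and the unchanged calls say little about such cells. No read was seen for 4 of 7 early endoderm markers in ES cells and 4 in MEFs, for 4 of 5 macrophage markers in ES cells and 2 in MEFs, for 3 of 4 endothelial markers in ES cells and 2 in MEFs, or for 1 of 4 epithelial markers in either type. Some of the others were read in many cells. Dab2 had 4.13 CPM in ES cells and 153 CPM in MEFs, where 33 cells had a read, and Gata6 0.23 CPM in ES cells and 21.1 CPM in MEFs. Epcam had 128 CPM in ES cells, where 14 cells had a read, and 0.40 CPM in MEFs, and Krt19 1.83 CPM in ES cells and 16.9 CPM in MEFs. The part of such cells in the results was not tested.

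Replication genes took a larger share of the transcripts of the typical ES cell than of the typical MEF. The replication total, the summed reads of the 38 genes as counts-per-million of all gene reads (CPM), ran from 60.2 to 2931 CPM with a median of 1191 CPM over 45 ES cells. Over 44 MEFs it ran from 0 to 5964 CPM with a median of 327 CPM. The types overlapped over most of the range, and both the lowest and the highest cell were MEFs. Medians within the 8 plate rows ran from 805 to 1662 CPM in ES cells (SD 302) and from 244 to 744 CPM in MEFs (SD 200), so those of the types did not overlap. Thinned to 20000 gene reads a cell, which 42 ES cells and 44 MEFs reached, the medians were 24 reads in ES cells and 8 reads in MEFs. The negative control wells had 6, 1, 0 and 0 replication reads.

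**Figure D1:**
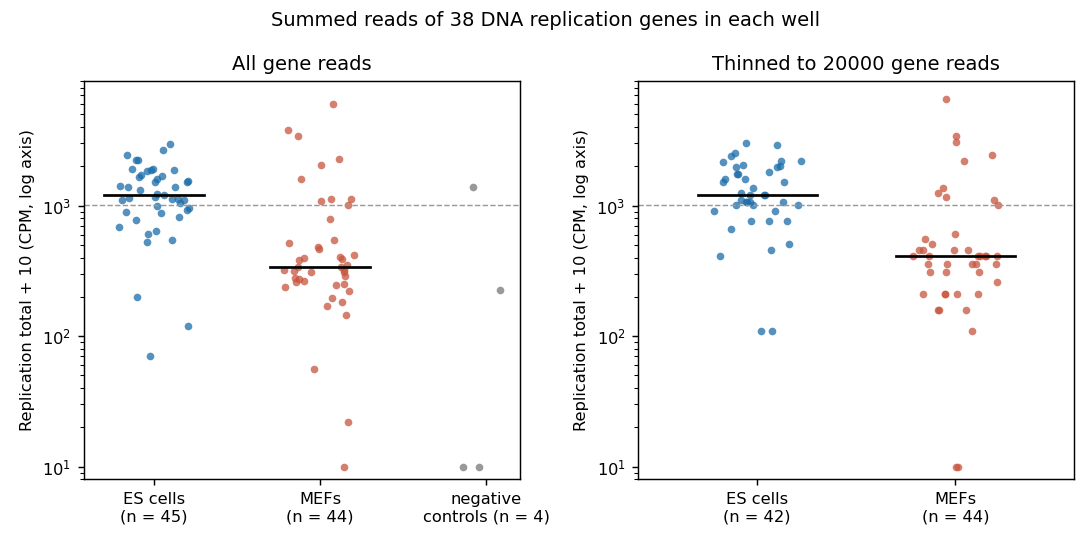
Replication total of each well, with 10 CPM added so that wells at 0 can be drawn on a log axis, for all gene reads (left panel) and for cells thinned to 20000 gene reads (right panel). Points are wells, black lines are medians and the dashed line marks 1000 CPM. ES cells gather around their median of 1191 CPM, whereas most MEFs lie near 327 CPM with a few above 2000 CPM.

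The total was spread evenly over ES cells and unevenly over MEFs. Its coefficient of variation over cells was 49.7% in ES cells and 150% in MEFs. The 5 highest cells held 21.5% of the summed CPM in ES cells and 52.1% in MEFs. Ordered from the highest, 15 ES cells and 5 MEFs were needed to reach 50% of the sum.

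A replication total of at least 1000 CPM, a range of a score and not a measured cell cycle phase, was reached by 30 of 45 ES cells (66.7%, Clopper-Pearson 95% interval 51% to 80%). It was reached by 10 of 44 MEFs (22.7%, interval 11.5% to 37.8%). These intervals cover counting error only. Between 800 and 1250 CPM lay 15 ES cells and 4 MEFs, so the ES share depends on where it is put. At 500 CPM the shares were 93.3% of ES cells and 29.5% of MEFs, and at 2000 CPM they were 11.1% of ES cells and 11.4% of MEFs. Thinned to 20000 reads, 31 of 42 ES cells and 10 of 44 MEFs were above 1000 CPM. With ribosomal protein genes left out of the totals, 88.9% of ES cells and 22.7% of MEFs were. Much of a total could come from 1 gene. The member with most reads in a cell held a median of 33.5% of its replication reads over 45 ES cells. Over the 43 MEFs with such a read that median was 41.2%. Reaching 1000 CPM thus does not show that many members were high in a cell.

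Among genes whose products act at mitosis, 35 were summed in the same way as a mitosis total. Both totals were at least 1000 CPM in 21 ES cells and 5 MEFs. The replication total alone was that high in 9 ES cells and 5 MEFs, the mitosis total alone in 8 ES cells and 0 MEFs, and neither in 7 ES cells and 34 MEFs. A count of 0 among 44 MEFs allows a share of up to 6.82%, taken as 3 cells of the 44, and the exact binomial interval ends at 8.04%.

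The 5 MEFs with both totals high were MEF 50, 51, 58, 80 and 89, chosen here by the mitosis total, which shares no gene with the replication list. Their replication totals were 2034, 2265, 3419, 5964 and 3778 CPM, and their mitosis totals lay between 5335 and 10398 CPM. The other 39 MEFs had replication totals from 0 to 1597 CPM (median 310 CPM) and mitosis totals of at most 696 CPM, so these 5 stood apart on both. They held 53.3% of all MEF replication reads and 12.1% of MEF gene reads. MEF 49, 66, 81, 83 and 85 had replication totals between 1001 and 1597 CPM with mitosis totals between 23.7 and 696 CPM.

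**Figure D2:**
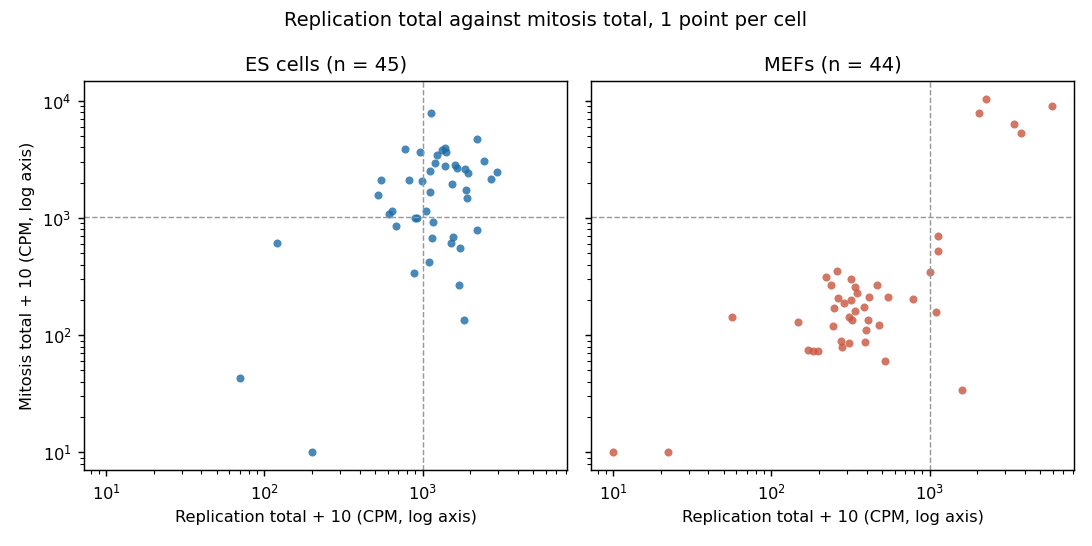
Replication total (x axis) against mitosis total (y axis) in each ES cell (left panel) and MEF (right panel), both as CPM plus 10 on log axes, with dashed lines at 1000 CPM. In MEFs 5 cells stand apart at mitosis totals of at least 5335 CPM, whereas 21 of 45 ES cells are above both lines.

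On the log2(CPM + 10) scale, the replication and mitosis totals had a Pearson r of 0.53 and a Spearman rho of 0.26 over 45 ES cells. Without the 2 cells farthest from the median mitosis total, ES cells 28 and 16, r was 0.15, so the relation rests on those cells, which had replication totals of 189 and 60.2 CPM. Among the 39 MEFs with a mitosis total below 1000 CPM, r was 0.62, rho 0.34, and r was 0.20 without MEF 53 and 62. MEF 53 had 0 replication reads among 63938 gene reads. These are descriptions over cells that share 1 library and differ in depth. Against gene reads, the replication total had rho 0.070 over ES cells and 0.040 over MEFs. Against genes detected, rho was 0.13 over ES cells and 0.16 over MEFs. Against the ribosomal protein share of reads, rho was −0.41 over ES cells and −0.28 over MEFs.

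Single members were read in few cells. The median member was seen in 25.6% of the ES cells and in 21.6% of the MEFs, and after thinning in 15.5% of the ES cells and in 9.09% of the MEFs. The median over cells was 0 CPM for 35 of 38 members in ES cells and for 31 of 38 in MEFs, so most medians say only that the gene was unread in most cells. A thinned ES cell had a read of 6 members at the median (range 1 to 13) and a thinned MEF of 3.5 (range 0 to 22). The cell with the most reads of a member held a median of 31.9% of its reads in ES cells and 32.8% in MEFs. No cell count below says that a gene was off in an unread cell.

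For each member, reads were pooled over the cells of a type, and the log2 ratio of pooled CPM was taken as ES cells over MEFs. Over the 12818 genes that had 20 reads or more, the median was −1.48 on this scale, so most genes took a smaller share in ES cells, and a relative log2 ratio is given after subtracting that median. On CPM, 22 members differed by 2-fold or more toward ES cells, 3 by 2-fold or more toward MEFs (Cdc6, Gins3 and Rrm2), and 13 by less. Of all measured genes, 15.4% were that far toward ES cells and 58.5% that far toward MEFs. Relative to the median gene, 33 members lay above by 2-fold or more, 2 lay below by as much (Cdc6 and Gins3), and 3 were between (Mcm4, Rpa1 and Rrm2). Of all measured genes, 33% lay that far above and 33.3% that far below.

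For the median member the relative log2 ratio was 2.97 (SD of the medians of 8 plate rows 1.23), and the log2 ratio of CPM itself was 1.49. The relative ratio exceeded its own SD over plate rows, on the positive side, for 22 of 38 members, and the CPM ratio exceeded that SD in size for 5 of 38. A plate row with 0 reads of a gene in a type took 3 reads in its place, which enters the SD of rarely read members. The relative ratio is the same whatever the totals are scaled by, but the CPM split is not. Under median-of-ratios scaling it was 32 members higher in ES cells, 2 higher in MEFs, and the all-gene median was −0.20. Scaled to the spike-in RNA, of which ES wells had a median of 27100 reads and MEF wells 4730, 0 members were higher in ES cells and 38 higher in MEFs, and the all-gene median was −6.04. All member ratios below are therefore statements about shares of transcripts and not about molecules per cell.

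**Figure D3:**
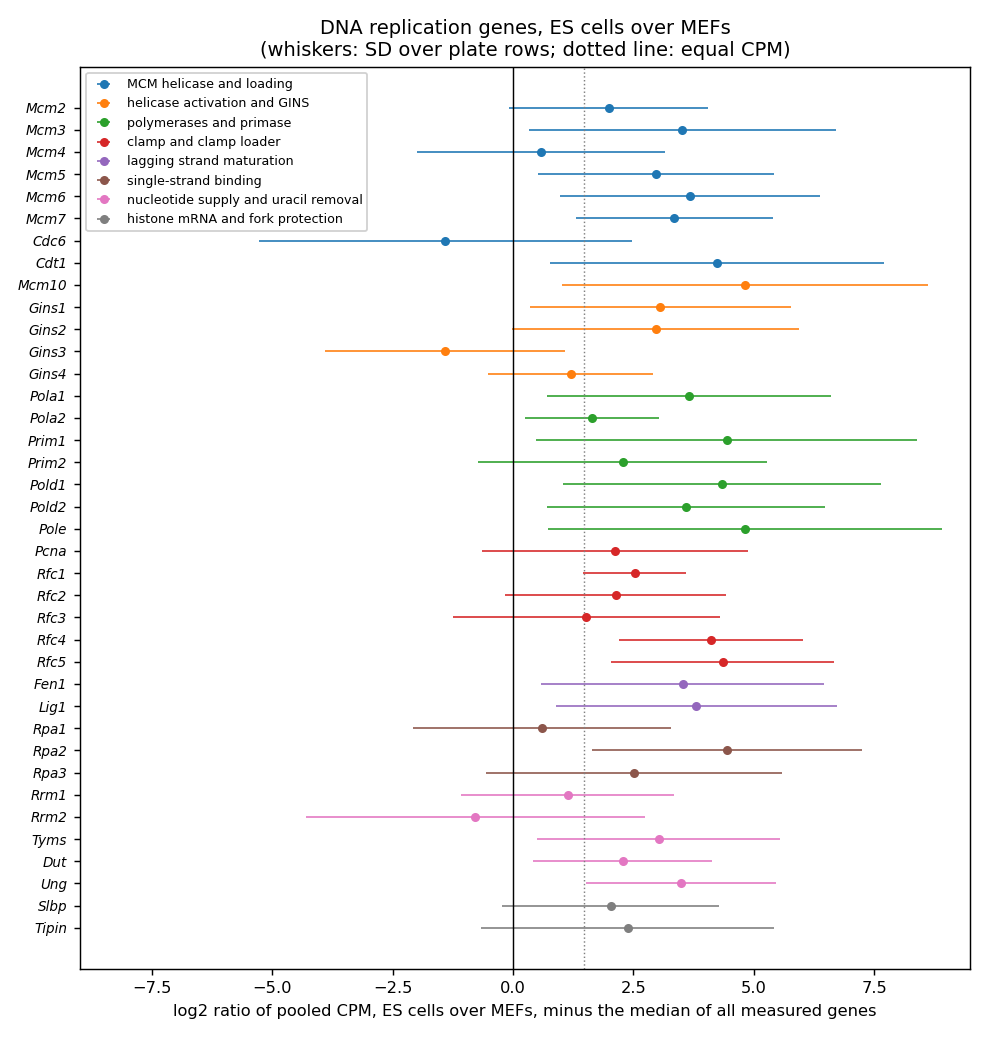
Relative log2 ratio of each member, ES cells over MEFs, after subtracting the median of 12818 measured genes. Points are pooled over 45 ES cells and 44 MEFs, whiskers are the SD over plate rows, colours are roles, and the dotted line marks equal CPM. Most points lie right of 0, with Cdc6, Gins3 and Rrm2 left of it.

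Of the 8 genes of the MCM2 to MCM7 ring and its loading, 5 were up by 2-fold or more in ES cells on CPM, and 6 lay 2-fold or more above the median gene. Mcm7, a ring subunit annotated at chr5:138164583-138172422 on the minus strand (GRCm38), ran from 0 to 1199 CPM with a median of 33.6 CPM in ES cells, and from 0 to 581 CPM with a median of 0 CPM in MEFs. Reads came from 27 of 45 ES cells and from 14 of 44 MEFs, and the types overlapped. Its pooled level was 124 CPM in ES cells, with a Poisson 95% interval from 117 to 132, and 33.8 CPM in MEFs, with one from 31.95 to 35.83, and it was higher in ES cells in 8 of 8 plate rows. It took 9.41% of replication reads in ES cells, the largest share of any member there.

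Mcm3 had 84.4 CPM pooled in ES cells and 20.5 CPM in MEFs, a 4.11-fold difference (relative log2 ratio 3.52, SD 3.18). Mcm6 had 22.8 CPM in ES cells and 4.98 CPM in MEFs, and Mcm5 27.6 CPM in ES cells and 9.84 CPM in MEFs. These ring subunits moved the same way as Mcm7, while Mcm2 and Mcm4 did not reach 2-fold on CPM. Mcm2 had 28.7 CPM in ES cells and 20.2 CPM in MEFs. Mcm4 had 19.4 CPM in ES cells and 35.98 CPM in MEFs, and MEF 66 alone reached 699 CPM.

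The loading factors pointed in opposite directions. Cdt1, which brings the ring to origins, had 29.2 CPM pooled in ES cells and 4.32 CPM in MEFs, with reads in 10 ES cells and 7 MEFs. Cdc6, its partner, annotated at chr11:98907801-98923940 on the plus strand, was read in 1 ES cell (ES cell 22, 5 reads) and in 1 MEF (MEF 58, 149 reads). Its pooled 0.573 CPM in ES cells and 4.24 CPM in MEFs thus each rest on 1 cell, as does each side of its relative log2 ratio of −1.41. Without MEF 58, no MEF read of Cdc6 was left.

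No ES cell and 2 MEFs had reads of all 6 ring subunits. The median ES cell had reads of 2 subunits and the median MEF of 1, and after thinning these were 1 and 0. All 6 were thus not seen together in any thinned cell of either type.

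Of the 5 genes of helicase activation, Mcm10, Gins1 and Gins2 were up by 2-fold or more in ES cells on CPM. Mcm10, which joins the activated helicase to polymerase alpha, had 40.9 CPM pooled in ES cells and 4.04 CPM in MEFs, a 10.1-fold difference, but ES cell 25 held 75.1% of its ES reads. The 4 GINS genes encode a complex that completes the helicase. Gins2 was read in 18 ES cells and 20 MEFs at 39.6 CPM in ES cells and 14.1 CPM in MEFs, and Gins4 in 16 ES cells and 27 MEFs at 14.7 CPM in ES cells and 17.8 CPM in MEFs.

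Gins1 and Gins3 were the rare ones. Gins1 was read in 2 ES cells and 1 MEF, with 23 reads in ES cells and 31 in MEFs. Gins3, at chr8:95633453-95645060 on the plus strand, had 0 reads in 45 ES cells and 90 reads in 5 MEFs. Its pooled level was 0.00 CPM in ES cells (Poisson upper bound 0.423) and 2.56 CPM in MEFs. With the ES cells set to a floor of 3 reads, it was 7.44-fold higher in MEFs. That size depends on the floor and is not a lower bound. MEF 54 held 36.7% of its MEF reads, and no thinned cell of either type had a read. At most 2 of the 4 GINS subunits were read in an ES cell and 3 in a MEF.

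All 7 polymerase and primase genes lay 2-fold or more above the median gene, and 5 were up by 2-fold or more in ES cells on CPM. In the polymerase alpha-primase complex, which starts new strands with an RNA primer, the catalytic subunit Pola1 had 40.9 CPM pooled in ES cells and 9.07 CPM in MEFs, with reads in 16 ES cells and 6 MEFs. Prim1, the catalytic primase subunit, had 46.8 CPM in ES cells and 6.03 CPM in MEFs, with reads in 12 ES cells and 9 MEFs. Its partner Prim2 had 7.45 CPM in ES cells and 4.30 CPM in MEFs, and ES cell 39 held 95.4% of its ES reads.

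Pola2, the regulatory subunit, was the most widely read of the complex and differed least. It was read in 29 ES cells and 31 MEFs, with medians of 6.17 CPM over ES cells and 2.27 CPM over MEFs and pooled levels of 17.1 CPM in ES cells and 15.3 CPM in MEFs. The only member reads in the negative controls were 6 of Pola1 in 1 well and 1 of Pola2 in another.

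Pole had the largest relative ratio of this group. Pole, the catalytic subunit of polymerase epsilon, had 21.7 CPM in ES cells and 2.13 CPM in MEFs (relative log2 ratio 4.82, SD 4.09), from 7 ES cells and 2 MEFs. Pold1, the catalytic subunit of polymerase delta, had 14.7 CPM in ES cells and 2.02 CPM in MEFs, from 5 ES cells and 3 MEFs. Pold2, its accessory subunit, had 22.1 CPM in ES cells and 5.15 CPM in MEFs. For Pole the spread over plate rows was nearly as large as the ratio.

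The clamp and its loader varied least over plate rows of all roles (median relative log2 ratio 2.33, SD of the row medians 0.72). Rfc1, the large subunit of the clamp loader, at chr5:65261850-65335670 on the minus strand, ran from 0 to 844 CPM with a median of 40.8 CPM in ES cells, and from 0 to 564 CPM with a median of 15.9 CPM in MEFs. Reads came from 31 of 45 ES cells and from 28 of 44 MEFs, and the types overlapped. Its pooled level was 117 CPM in ES cells (interval 110 to 124) and 56.5 CPM in MEFs (interval 54.03 to 59.03), and its relative log2 ratio was 2.53 (SD 1.07).

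Not all small loader subunits reached 2-fold on CPM. Their relative log2 ratios varied widely over plate rows, with SDs from 1.91 (Rfc4) to 2.77 (Rfc3). ES cell 35 held 78.7% of the ES reads of Rfc3, and MEF 58 held 62.7% of its MEF reads. Rfc4 had 12.04 CPM in ES cells and 1.93 CPM in MEFs, a 6.22-fold difference, and Rfc5 had 25 CPM in ES cells and 3.41 CPM in MEFs, a 7.32-fold difference. Rfc2 had 35.8 CPM in ES cells and 22.8 CPM in MEFs, and Rfc3 had 10.8 CPM in ES cells and 10.4 CPM in MEFs, neither reaching 2-fold. Pcna, the sliding clamp, ran from 0 to 700 CPM over ES cells (median 0, read in 17) and from 0 to 434 CPM over MEFs (median 1.55, read in 22). Its pooled levels of 67.4 CPM in ES cells and 43.2 CPM in MEFs differed by 1.56-fold, within the spread over plate rows.

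Fen1 and Lig1, the flap nuclease and the ligase that join lagging strand fragments, were both more than 4-fold higher in ES cells on pooled CPM. Their log2 ratios of CPM, 2.04 for Fen1 and 2.33 for Lig1, lay within the spread over plate rows (SD 2.93 for each). On CPM, Fen1 was higher in ES cells in 5 of 8 plate rows and Lig1 in 7 of 8. Lig1 had 69.8 CPM pooled in ES cells and 13.9 CPM in MEFs, with reads in 20 ES cells and 7 MEFs, and 96.9% of its MEF reads came from MEF 58, 80 and 89. Fen1 had 34.9 CPM in ES cells and 8.45 CPM in MEFs, with reads in 8 ES cells and 15 MEFs.

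The 3 subunits of replication protein A, which coats single-stranded DNA, did not move together. Rpa2 had 23.6 CPM pooled in ES cells and 3.02 CPM in MEFs, and Rpa3 38.5 CPM in ES cells and 18.8 CPM in MEFs. Rpa1, the large subunit, had 21.7 CPM in ES cells and 40.02 CPM in MEFs (relative log2 ratio 0.59, SD 2.68). Reads of all 3 subunits were present in 2 ES cells and 4 MEFs.

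The nucleotide enzymes held Rrm2, the member that set 5 MEFs apart from the other 39. Rrm2, the small subunit of ribonucleotide reductase, which makes deoxynucleotides, lies at chr12:24708241-24714146 on the plus strand. It ran from 0 to 245 CPM with a median of 0 CPM over ES cells and from 0 to 932 CPM with a median of 1.70 CPM over MEFs. It was read in 21 ES cells and 23 MEFs, and its pooled level was 24.8 CPM in ES cells (21.6 to 28.3) and 119 CPM in MEFs (115 to 122). It was 4.79-fold higher in MEFs on CPM, and its relative log2 ratio was −0.78 (SD 3.52). Without the 5 MEFs of high mitosis total, that relative ratio was 1.03, so the MEF side rests on those cells.

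Within MEFs, Rrm2 had 768, 680, 694, 659 and 932 CPM in MEF 50, 51, 58, 80 and 89. No other MEF was above 395 CPM, and 75.9% of the MEF reads of Rrm2 came from these 5 cells. It was the only member whose lowest value among the 5 lay above the highest of the other 39 MEFs. Its share of MEF replication reads was 16.4%, the largest of any member there.

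Rrm1, the large subunit of the same enzyme, had 48.4 CPM pooled in ES cells and 61.6 CPM in MEFs, with reads in 18 ES cells and 28 MEFs. Tyms, which makes thymidylate, had 24.8 CPM in ES cells and 8.51 CPM in MEFs, with 93.6% of its reads over the plate uniquely mapped against 100% for every other member. Dut and Ung, which keep uracil out of DNA, had 34.9 and 4.24 CPM in ES cells and 20.1 and 1.05 CPM in MEFs. The 37 MEF reads of Ung all came from MEF 58.

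Slbp, which binds the stem-loop of replication-dependent histone mRNA, had 61.7 CPM pooled in ES cells and 42.2 CPM in MEFs. Tipin, which protects stalled forks with Timeless, had 58.3 CPM in ES cells and 31.1 CPM in MEFs, with the highest single value of any member, 1990 CPM, in MEF 80. Neither gene reached 2-fold on CPM.

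The same 5 MEFs carried most MEF reads of many members. They held at least 50% of the MEF reads of 22 of 38 members, with a median of 61.2% over members, beside 12.1% of all MEF gene reads. The same count was not taken over all genes, so it does not set the members apart from other rarely read genes. Mcm5, Pcna, Rfc1, Rrm1, Rrm2 and Slbp were read in all 5, and Cdc6, Gins1, Pole and Ung were read in none of the other 39 MEFs. MEF 51, 58 and 89, with 991965 to 1657876 gene reads, had reads of 31, 33 and 29 members. MEF 50 and 80, with 166691 and 157772 gene reads, had reads of 12 and 16 members. Thinned to 20000 reads, MEF 51, 58 and 89 had reads of 22, 17 and 20 members and MEF 50 and 80 of 9 and 13. With these 5 MEFs left out, an alternative added after the data were seen, 30 members were up by 2-fold or more in ES cells on CPM and 1 in MEFs, and 36 lay 2-fold or more above the median gene, with Cdc6, Gins1, Pole and Ung, unread in the MEFs left, set against a floor of 3 reads. The all-gene median was then −1.42, beside −1.48 with all MEFs. How many of all genes were called without the 5 MEFs was not counted.

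**Figure D4:**
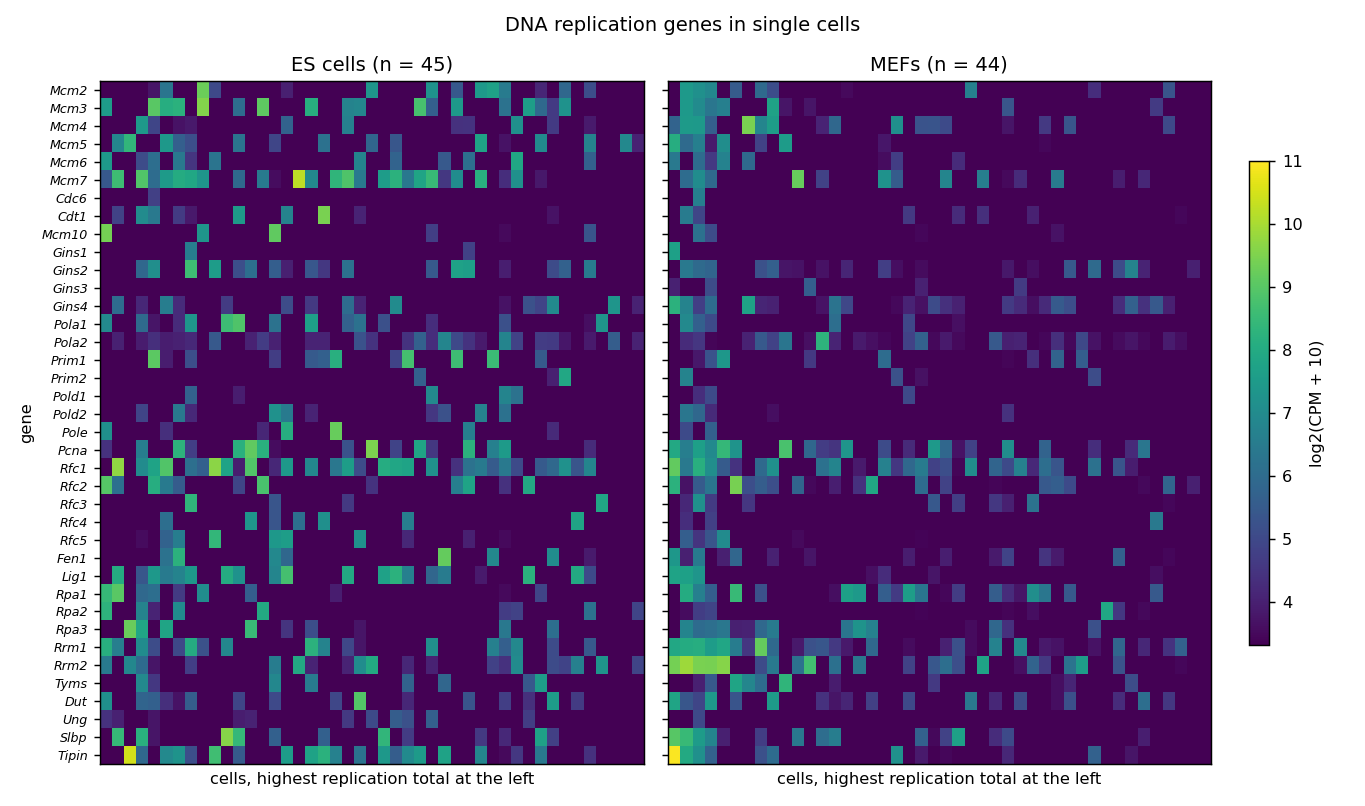
Level of each member, as log2(CPM + 10), in each ES cell (left panel) and MEF (right panel), with cells ordered from the highest replication total at the left. MEF 51, 58 and 89 had reads of 31, 33 and 29 members, and MEF 50 and 80, also among the 5 MEFs with both totals high, of 12 and 16.

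Across single cells the members were correlated with one another in MEFs and hardly in ES cells. Pearson r was taken on log2(CPM + 10) over members with a read in at least 25% of the cells of a type. Over 45 ES cells, 19 members gave 171 pairs with a median r of 0.030, and 6.43% of pairs reached 0.3. Over 44 MEFs, 17 members gave 136 pairs with a median r of 0.25, and 36.8% reached 0.3. Over all pairs of genes read as widely, the median r was 0.063 in ES cells and 0.044 in MEFs, and 9.05% of such pairs in ES cells and 5.62% in MEFs reached 0.3. Without the 5 MEFs, the median over member pairs in MEFs was 0.017. The points share 1 library and differ in depth, and in sparse counts most single pairs say little.

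The highest pairs were Mcm3 with Rfc2 in ES cells (r = 0.52, both read in 9 cells) and, in MEFs, Slbp with Tipin (r = 0.61, 8 cells), Rfc1 with Tipin (0.60, 12 cells) and Mcm4 with Gins4 (0.57, 17 cells). In MEFs Tipin had the highest median r to the other members (0.45), followed by Rrm1 (0.38) and Fen1 (0.35), while Pola2 had −0.0078. In ES cells these medians ran from −0.13 for Rrm2 to 0.077 for Rrm1. Thinned to 20000 reads, 8 members in ES cells and 6 in MEFs remained, with medians of 0.020 in ES cells and 0.26 in MEFs.

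**Figure D5:**
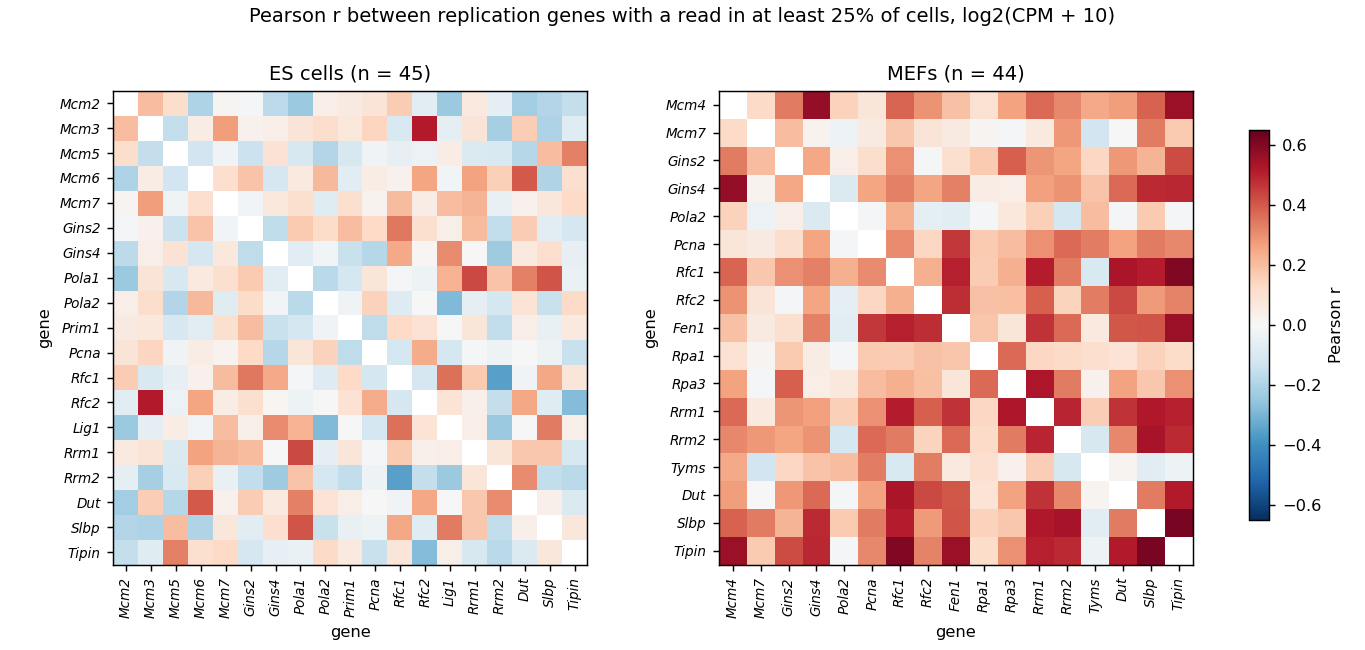
Pearson r between pairs of members on log2(CPM + 10), over 45 ES cells (left panel, 19 members) and 44 MEFs (right panel, 17 members), for members read in at least 25% of the cells of that type. Red is positive and blue negative. The median pair is at 0.030 in ES cells and 0.25 in MEFs.

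Of the genes outside the list, those most like the replication total in ES cells, by Spearman rho over 45 cells among 1200 genes read in at least 50% of them, were Gm16379 (0.58), Atp5g3 (0.56), Atp5h (0.51), Snrpe (0.50), Rps4y2, mt-Rnr2 and Eif2s2 (0.47 to 0.49). In 44 MEFs, among 5296 genes, they were Nup62 (0.56), Pfdn4 (0.56), Edem1 (0.55), Irf2 (0.55), Nap1l4 (0.51), Cenpf (0.50), Uba2 (0.50) and H2afx (0.50). The median rho over all genes compared was 0.083 in ES cells and 0.038 in MEFs. After thinning, rho was lower for each of these genes except Snrpe, at 0.52.

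Other replication genes, 48 in number and chosen with these results known, showed a like split. On CPM 23 of them differed by 2-fold or more toward ES cells, 6 toward MEFs and 19 by less, and 40 lay 2-fold or more above the median gene. Gmnn, the inhibitor of Cdt1, had 113 CPM pooled in ES cells and 2.79 CPM in MEFs. Nasp, a histone chaperone, had 161 CPM in ES cells and 10.7 CPM in MEFs, and Uhrf1, which copies DNA methylation with Dnmt1, 213 CPM in ES cells and 24.5 CPM in MEFs. Timeless, the partner of Tipin, had 32.2 CPM in ES cells and 3.38 CPM in MEFs.

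Of 13 E2F factors and their Rb family partners, 1 differed by 2-fold or more toward ES cells on CPM, 8 toward MEFs and 4 by less, beside 58.5% of all genes tested toward MEFs. Set against the median gene, 4 lay 2-fold or more above, 3 below and 6 between, and the median of their relative log2 ratios was −0.19. E2f6, a repressor of the family, had 0.917 CPM in ES cells and 61.7 CPM in MEFs, E2f3 18.6 CPM in ES cells and 126 CPM in MEFs, E2f5 2.75 CPM in ES cells and 14.02 CPM in MEFs, and Rb1 3.78 CPM in ES cells and 29.9 CPM in MEFs. Cell cycle inhibitors went to the MEF side, with 0 of 11 up by 2-fold or more in ES cells and 10 in MEFs, and 7 lying 2-fold or more below the median gene. Of mitosis genes, 15 of 35 were up by 2-fold or more in ES cells and 1 in MEFs, with Ccnb1, a cyclin of mitotic entry, at 180 CPM in ES cells and 41.5 CPM in MEFs.

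Because many replication genes are known E2F targets, their promoters were read for 4 words of the E2F site, TTTCCCGC, TTTGGCGC, TTTCGCGC and TTTGCCGC, on both strands and allowing overlaps, from 250 bases before to 50 after the start site. Promoters were those of RefSeq on GRCm38.p6, in which 30 of 38 members had an entry. Mcm4, Gins1, Gins2, Gins4, Prim2, Pole, Rfc2 and Tipin had none. A word was present for 11 of 30 members (36.7%) and for 704 of 27025 genes (2.60%). By promoter, the shares were 31.4% of 35 and 2.26% of 32851. The CCAAT word was present for 63.3% of members and 41.1% of genes.

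Of the 11 members with an E2F word, 9 lay 2-fold or more above the median gene and 2 below it (median relative log2 ratio 3.52). Of the 19 without one, 17 lay above and 2 between (median 2.53). Most members of either kind thus lay above the median gene, and both members below it carried the word. Those 2 calls are weak: Cdc6 was read in 1 ES cell and 1 MEF, and Gins3 had 0 ES reads and took the floor of 3. The upstream 250 bases of 6 promoters are shown, with the E2F words in capitals, for 4 members above the median gene and for Cdc6 and Gins3, the 2 members below it. They read from 5′ to 3′ along the gene and end just before the RefSeq start site, which for Cdc6, Gins3 and Mcm7 lies inside the gene span of the annotation used for the gene positions. The stretches are chr8:75109259-75109508 on the plus strand for Mcm5, chr1:128359706-128359955 on the minus strand for Mcm6, chr5:138171884-138172133 on the minus strand for Mcm7, chrX:93632156-93632405 on the minus strand for Pola1, chr11:98907901-98908150 on the plus strand for Cdc6 and chr8:95633309-95633558 on the plus strand for Gins3.
Mcm5: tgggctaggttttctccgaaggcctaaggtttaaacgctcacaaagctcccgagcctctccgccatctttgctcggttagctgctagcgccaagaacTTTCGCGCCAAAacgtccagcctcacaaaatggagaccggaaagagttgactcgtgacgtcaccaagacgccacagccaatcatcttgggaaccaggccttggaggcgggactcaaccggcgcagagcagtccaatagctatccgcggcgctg
Mcm6: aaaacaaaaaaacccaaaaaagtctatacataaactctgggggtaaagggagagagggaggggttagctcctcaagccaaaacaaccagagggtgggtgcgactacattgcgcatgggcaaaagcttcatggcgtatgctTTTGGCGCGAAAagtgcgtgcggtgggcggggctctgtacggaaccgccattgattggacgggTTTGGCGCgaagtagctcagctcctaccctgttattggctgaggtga
Mcm7: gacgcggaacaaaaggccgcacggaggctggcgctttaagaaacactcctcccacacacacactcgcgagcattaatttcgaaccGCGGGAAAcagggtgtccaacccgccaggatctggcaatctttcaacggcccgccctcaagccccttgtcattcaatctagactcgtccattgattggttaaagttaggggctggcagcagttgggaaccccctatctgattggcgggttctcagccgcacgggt
Pola1: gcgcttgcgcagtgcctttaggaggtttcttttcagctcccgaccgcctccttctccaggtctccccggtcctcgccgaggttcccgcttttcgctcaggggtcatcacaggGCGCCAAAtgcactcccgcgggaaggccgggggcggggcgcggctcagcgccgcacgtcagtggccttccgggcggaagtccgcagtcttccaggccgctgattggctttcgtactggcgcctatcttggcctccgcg
Cdc6: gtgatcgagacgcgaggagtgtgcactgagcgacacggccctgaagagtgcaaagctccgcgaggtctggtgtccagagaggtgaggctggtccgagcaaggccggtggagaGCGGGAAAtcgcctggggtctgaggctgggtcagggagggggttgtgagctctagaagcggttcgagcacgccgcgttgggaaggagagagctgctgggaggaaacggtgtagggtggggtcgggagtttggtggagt
Gins3: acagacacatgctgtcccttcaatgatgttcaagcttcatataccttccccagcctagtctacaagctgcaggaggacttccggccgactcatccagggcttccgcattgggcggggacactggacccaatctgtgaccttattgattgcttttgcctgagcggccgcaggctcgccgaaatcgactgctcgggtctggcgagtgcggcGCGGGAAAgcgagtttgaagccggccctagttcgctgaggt

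In Mcm5 the words TTTCGCGC and GCGCCAAA overlap, beginning 153 and 149 bases before the start site. In Mcm6 TTTGGCGC and GCGCGAAA overlap in the same way at 110 and 106 bases before it, and another TTTGGCGC lies 47 bases before it. Mcm7 carries GCGGGAAA 165 bases before the start site shown, and its other RefSeq promoter, not shown, carries no E2F word. Pola1 and Cdc6 each have 1 word 138 bases before the start site, GCGCCAAA in Pola1 and GCGGGAAA in Cdc6, and Gins3 has GCGGGAAA 41 bases before it. A match to these letters describes the sequence and shows no binding.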

How the data were processed

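Single-cell transcript 5′ ends were measured by STRT in 96 wells of 1 plate. The deposited table gives raw read counts per gene row in each well, with no normalization by the authors, and these counts hold no molecular identifiers per the file headers and labels, so PCR copies were counted. Per the submitters' processing notes Bowtie was used, with its version and the genome build not given in the sources used here. Reads with alternative mappings are included, per the file headers. 

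Members were matched by symbol. Wells with at least 10000 gene reads were used, which left out ES cells 32, 44 and 46, and with 1 cell a well no doublet caller was run. Reads were pooled by type and divided by summed gene reads. A pooled sum of 0 took a floor of 3 reads. Each type was 1 culture, so no p-value was computed, and Poisson and Clopper-Pearson intervals at 95% cover counting error only. SDs over 8 plate rows mix cell-to-cell and technical variation and hold no variation between cultures. Orc1 to Orc6 were read under their older symbols, and Cdkn2d was not found. From each other list, the 4 genes with the largest log2 ratio with 10 CPM added among those with at least 100 reads were named. One of the genes most like the replication total is not reported here. The members and lists were chosen with earlier results of these data known. The ratio and correlation steps were tested on simulated data. Alternatives changed the scaling, thinning, thresholds, cells and plate rows. The tools were Python 3.11.15, numpy 2.4.6, pandas 2.3.3, scipy 1.17.1 and matplotlib 3.10.9.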

Additional observations from a re-analysis of the deposited data

Results flagged for a closer look

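Among the 4 negative control wells, negative control 93 stood far from the others, with 6.0 replication reads, all of Pola1, and a replication total of 1377 CPM among 4356 gene reads. The others had 1, 0 and 0 replication reads. Among normal values, such a gap is flagged by chance in about 1 in 20 groups. These counts are low and several quantities of the same wells were tried, so that rate may not hold here. With the mean negative control reads subtracted from every well, 33 members lay 2-fold or more above the median gene, as without the subtraction. Of the members, only Pola1 and Pola2 had reads in the negative controls, so the subtraction could hardly change this count.

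Of the 3 ES wells under the minimum of 10000 gene reads, which entered no comparison, ES cell 32 had a replication total of 1934 CPM and ES cell 44 of 2252 CPM, both above the highest negative control. These totals rest on 8 reads of 2 members and on 21 reads of 3 members. ES cell 46 had 0 replication reads.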

How the results depend on the processing

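No paired analysis was possible because ES cells and MEFs share no replicate numbers in the labels. Values within plate rows compare different cells of the same row and carry no test. For the 38 relative log2 ratios under 16 settings, 590 of 603 values kept their sign and 13, of 6 members, did not, and 580 lay within 1 SD over plate rows of the value from all cells. These SDs ran from 1.07 (Rfc1) to 4.09 (Pole) on the log2 scale. A value could thus shift by more than 2-fold and still lie within 1 SD, so that count is a loose measure. Part of the agreement between settings was also fixed in advance. Median-of-ratios, spike-in and ribosomal protein scaling cannot change a relative ratio. A minimum of 50% unique reads left out no member, so each of these settings gave 38 unchanged values. In 30 of the 603 values 1 type had no read and was set to the floor of 3 reads, so their size and sign depend on that floor. Among these, Cdc6 was at 0.94 thinned (no ES read), and at 4.05 in plate rows E to H and 3.99 without the 5 MEFs of high mitosis total (no MEF read), and Gins1 at −0.060 in rows E to H (no ES read). Gins1 was at −0.65 and Gins4 at −0.48 thinned, and Prim2 at −2.23 in rows A to D and −0.23 without its top cell. Of members within 2-fold of the median gene, Mcm4 (0.59 in all cells) was at −0.52 by the mean of per-cell CPM, −0.16 thinned and −3.03 in rows A to D, and Rrm2 (−0.78 in all cells) at 0.17 in rows E to H and 1.03 without the 5 MEFs. The cause was not tested.

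The members at least 2-fold above the median gene numbered 27 thinned, 29 by the mean of per-cell CPM, 31 in rows A to D and 32 in rows E to H, of which 27, 29, 31 and 30 were among the 33. The number at least 2-fold below it was 1 thinned, 0 in rows E to H, 0 without the top cell, 1 with a minimum of 100 reads and 1 without the 5 MEFs, and leaving out 1 cell gave 1 (MEF 51) to 3 (ES cell 25). On CPM, 0 members were higher in ES cells and 38 in MEFs under spike-in scaling. The number higher in MEFs was 6 in rows A to D, 5 without the top cell and 1 without the 5 MEFs, and leaving out 1 cell gave 2 (MEF 58) to 5 (ES cell 35).

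Without ribosomal protein genes in the totals, the median ES replication total was 2399 CPM and 88.9% of ES cells were above 1000 CPM. At thresholds of 500 and 2000 CPM, 93.3% and 11.1% of ES cells were above. Of MEFs, 11.4% were above 2000 CPM and 10.0% of those in rows E to H above 1000 CPM. The median number of members read was 9.0 in ES cells and 9.5 in MEFs unthinned, 9.0 in ES cells and 5.0 in MEFs thinned to 50000 reads, and 5.0 in ES cells and 2.0 in MEFs with at least 2 reads a gene.

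The ES median pair r was −0.081 with reads in 50% of cells and −0.028 in rows A to D. The MEF one was 0.30 in rows A to D, 0.017 without the 5 MEFs, and 0.20 to 0.26 with 1 cell left out. For replication against mitosis totals, ES cells had a Spearman rho of 0.26, r of 0.15 without the 2 farthest cells, 0.63 in rows E to H and 0.40 to 0.59 with 1 cell left out. Over all 44 MEFs, with the 5 that stand apart among them, r was 0.79 and rho 0.54. Without those 5, r was 0.62 and rho 0.34. Depth limits most members: at 20000 reads a cell, a single read is 50 CPM.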
